A study of Mus musculus with 12 samples.

Results

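Voltage-gated sodium channels, voltage-gated calcium channels and the hyperpolarization-activated cation channels (HCN) set how neurons fire, release transmitter and keep rhythm. The genes described here are 30 named genes of these families, among 54532 rows of the deposited expression table: 7 pore-forming alpha and 3 beta subunits of sodium channels, 9 alpha1, 4 alpha2delta and 4 beta subunits of calcium channels, and 3 HCN channels. They were chosen by gene name from the channel families and by no value in the rule, though earlier results of these data were known when the genes were chosen. RNA came from the lateral septum, a forebrain nucleus rich in GABA neurons, of wild-type mice, and was sequenced as bulk tissue in 12 libraries. The 2 groups, each of 6 libraries at day 3, had received saline or CFA, the usual short form in pain research of complete Freund's adjuvant, which causes lasting local inflammation. The labels give no age, sex or injection site. Nothing in the labels ties a library to an animal of its own, so each p-value speaks of the spread among these libraries, part of which may be technical.

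In a sodium or calcium channel a single large protein (alpha or alpha1) forms the pore and senses voltage, and smaller partners set its surface number, place and gating. Sodium channels carry the rising phase of the action potential. Calcium channels of the high-voltage classes trigger transmitter release and signalling in dendrites, T-type calcium channels open near rest and drive burst firing, and HCN channels carry an inward current at negative voltages that steadies the resting potential and supports rhythm.

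The libraries held 33.6 to 39.2 M reads, recovered from the deposited values. Markers of the labelled tissue were present in every library: 6 of 6 lateral septum genes were tested, with a summed level of 182 to 249 FPKM (fragments counted on a gene, scaled to its length and to the reads of the library) in saline and 170 to 262 in CFA. The 3 GABA neuron markers summed to 384 to 472 FPKM in saline and 361 to 446 in CFA, and 14 pan-neuronal genes to 1659 to 1891 and 1549 to 1830. Markers of neighbouring tissue varied more. The 14 striatal projection neuron markers summed to 250 to 397 FPKM in saline and 250 to 652 in CFA, and 7 markers of cortical and hippocampal excitatory neurons to 6.92 to 103 and 10.0 to 120. Choroid plexus markers reached 2348 FPKM in saline 3 and 736 in saline 5, against at most 83.2 in the other saline libraries and 62.4 in CFA. The 8 oligodendrocyte markers summed to 861 to 2246 FPKM in saline and 1137 to 2712 in CFA. The 5 erythroid markers summed to 157 to 333 FPKM in saline and 78.9 to 668 in CFA. Xist was at 1 FPKM or more in 2 saline and 5 CFA libraries. Sex is not in the labels. A fit of CFA against saline with Xist as a covariate is given in the last section, and no member passed its threshold. The part of sex itself in the differences between CFA and saline was not tested beyond that fit. In bulk tissue, fewer cells of a type and less RNA per cell cannot be told apart.

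The first comparison asked whether the channel genes differed between CFA and saline. None of the 26 members that could be tested passed the threshold, by limma with Benjamini-Hochberg adjustment over 13345 genes (adjusted p from 0.5003 to 0.995), where 0.03% of all genes tested passed (4 genes). At an unadjusted p under 0.05 there were 3 members, Cacna1i higher and Scn2b and Cacna1a lower, 11.5% of the 26 beside 7.67% of all genes tested. For none of the 26 did the saline and CFA libraries separate without overlap, which happened for 0.495% of all genes tested. The difference was positive for 13 members and negative for 13. Its median was -0.0015 on the log2(FPKM + 1) scale, beside -0.0043 over all genes, and its median size was 0.06, beside 0.05. The 95% interval of the difference lay within a 1.5-fold change of FPKM + 1 in either direction for 24 members. It reached beyond that for Scn4b and Cacna2d3. As a change of FPKM itself, the interval would be wider for low genes. The remaining 4 members, Scn4a, Scn7a, Cacna1f and Cacna2d4, were at 1 FPKM or more in fewer than 6 libraries and were not tested.

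**Figure D1:**
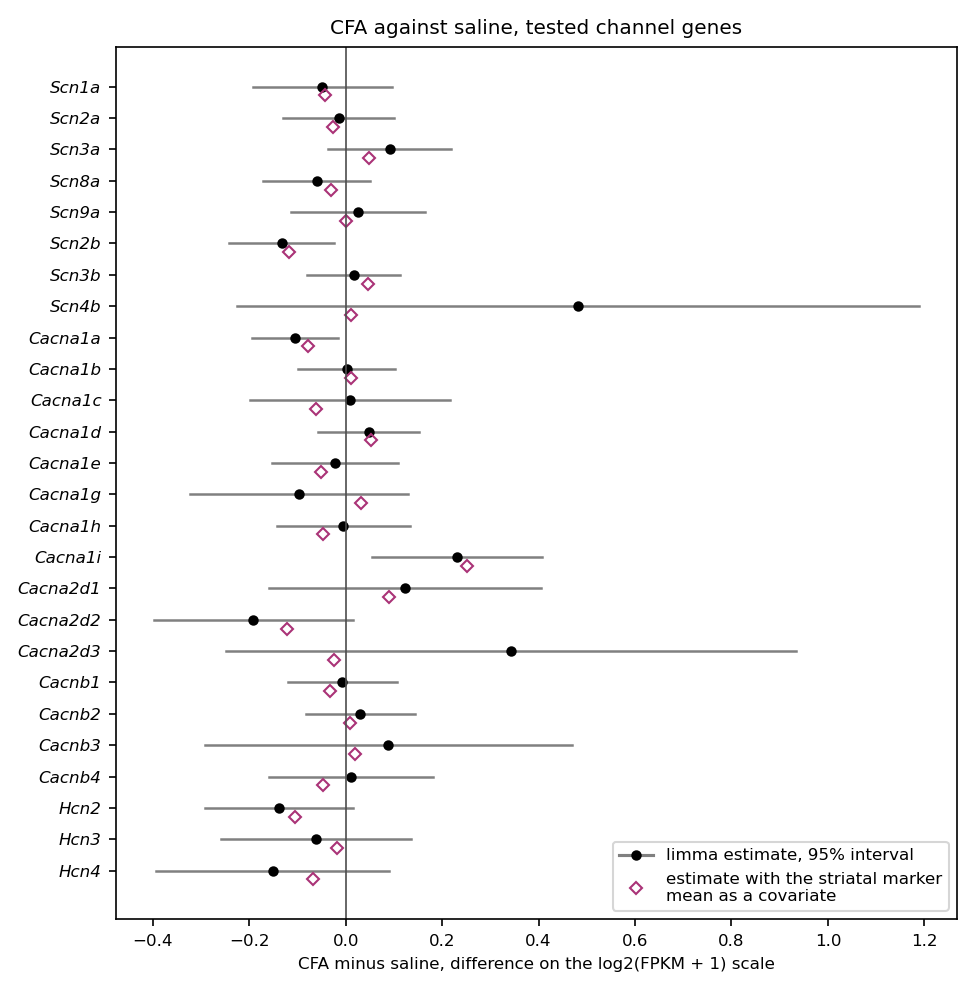
Difference between CFA and saline for the 26 tested channel genes, on the log2(FPKM + 1) scale (horizontal axis), ordered by family. Black points with lines are limma estimates with 95% intervals over 6 libraries a group, and open diamonds are the estimates with the striatal marker mean as a covariate. The widest intervals are those of Scn4b (-0.23 to 1.19, estimate 0.48) and Cacna2d3 (-0.25 to 0.93, estimate 0.34), whose diamonds lie at 0.01 and -0.02.

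Levels, which FPKM scales to the deposited length of each gene, spanned a wide range. Comparisons between genes, as ranks or as family shares, rest on that length. Scn2b had the highest mean, followed by Hcn2, Cacna2d2 and Scn3b, and Scn4a the lowest. Reads were not what limited the precision: the tested member with the fewest had 438 in a library, and counting error alone came to at most 4.37% for a tested member. The spread over all 12 libraries had a median coefficient of variation of 9.35%. It reached 20% or more for 5 tested members, Scn4b at 62.3%, Cacna2d3 at 51.6%, Cacnb3 at 25.6%, Cacna2d1 at 20.3% and Hcn4 at 20.1%.

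**Figure D2:**
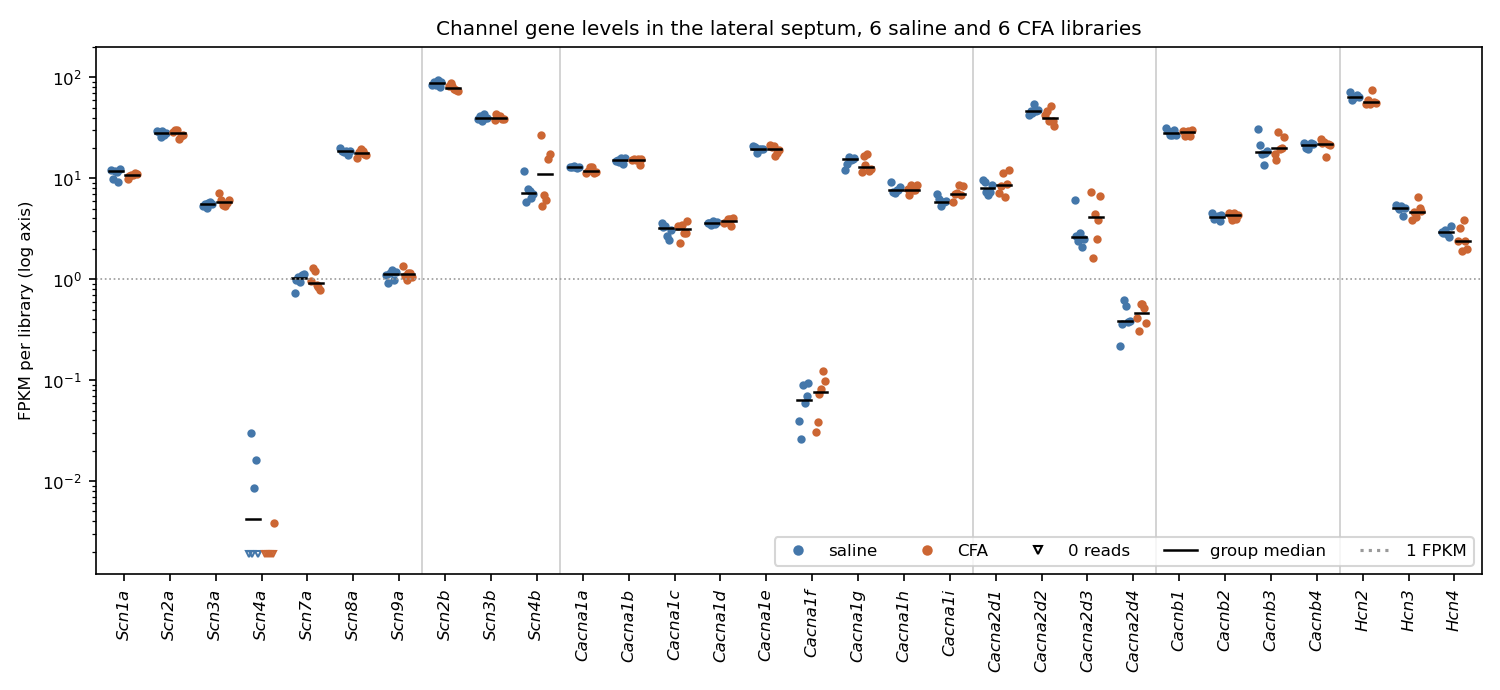
FPKM per library (vertical log axis) of the 30 channel genes, grouped by family, with 6 saline (blue) and 6 CFA (orange) points a gene, bars at group medians and triangles for 0 reads. Scn2b lies at 73.6 to 93.6 FPKM in all libraries, while Scn4b runs from 5.30 to 26.6.

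Of these 5, the start regions of Scn4b, Cacna2d3 and Cacna2d1 are shown together with that of Cacna2d2, the most abundant alpha2delta gene, as examples of genes described below that varied with a marker list. RefSeq (GRCm38.p6) start-site windows, 250 bases before to 50 after a start, were matched by symbol for 23 of the 30 members (33 windows). Capitals mark matches on either strand to the GC box GGGCGG and the CCAAT box CCAAT; the TATA box TATAAA, the cyclic AMP response element TGACGTCA and the E-box CACGTG were searched too and have no match in these windows. No searched motif overlapped another, and overlapping copies of the GC box were each counted.
Scn4b, chr9:45138374-45138673, plus strand: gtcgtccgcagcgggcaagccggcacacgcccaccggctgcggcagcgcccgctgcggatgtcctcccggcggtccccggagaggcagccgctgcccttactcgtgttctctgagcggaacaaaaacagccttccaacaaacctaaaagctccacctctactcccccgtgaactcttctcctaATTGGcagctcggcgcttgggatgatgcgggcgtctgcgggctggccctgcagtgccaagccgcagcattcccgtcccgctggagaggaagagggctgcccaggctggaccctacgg
Cacna2d3, chr14:29721815-29722114, minus strand: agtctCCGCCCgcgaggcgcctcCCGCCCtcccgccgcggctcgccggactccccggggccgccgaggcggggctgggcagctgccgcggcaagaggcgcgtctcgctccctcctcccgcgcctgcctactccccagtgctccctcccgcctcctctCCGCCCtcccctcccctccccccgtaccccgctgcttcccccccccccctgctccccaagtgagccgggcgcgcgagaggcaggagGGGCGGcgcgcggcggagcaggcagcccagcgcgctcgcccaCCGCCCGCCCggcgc
Cacna2d1, chr5:15934441-15934740, plus strand: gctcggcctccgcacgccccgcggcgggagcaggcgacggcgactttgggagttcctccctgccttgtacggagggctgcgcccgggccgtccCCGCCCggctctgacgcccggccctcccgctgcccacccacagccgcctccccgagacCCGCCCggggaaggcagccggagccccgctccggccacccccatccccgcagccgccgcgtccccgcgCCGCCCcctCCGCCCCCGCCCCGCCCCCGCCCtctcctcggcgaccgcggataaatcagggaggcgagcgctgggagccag
Cacna2d2, chr9:107399630-107399929, plus strand: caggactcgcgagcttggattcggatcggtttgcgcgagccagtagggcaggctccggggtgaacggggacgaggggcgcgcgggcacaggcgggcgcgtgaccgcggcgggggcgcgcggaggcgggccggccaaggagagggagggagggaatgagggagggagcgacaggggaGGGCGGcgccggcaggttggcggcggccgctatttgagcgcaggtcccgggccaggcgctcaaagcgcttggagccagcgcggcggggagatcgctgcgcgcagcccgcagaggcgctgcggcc
The Scn4b start used by RefSeq lies 229 bases downstream of the gene start in the deposited table, and its window holds 0 GC boxes and 1 CCAAT box. The Cacna2d3 window holds 6 GC boxes, that of Cacna2d1 7 and that of Cacna2d2 1. Cacnb3, also described below with a marker list, has windows with 1 and 4 GC boxes that are not printed. Motif counts were not tested against the variation with marker lists. A GC box was in 15 of the 33 member windows (45.5%), beside 35.7% of all 32851 windows of this length. A CCAAT box was in 8, beside 37.4%, a TATA box in 2, beside 13.6%, and the cyclic AMP element and E-box in 0, beside 1.79% and 7.15%. The windows of the members had a median GC content of 62.7%, against 52.7% for all windows. A match is a description of the letters and not a site.

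Among the sodium channel alpha subunits, Scn2a, the NaV1.2 channel of axon initial segments and unmyelinated axons, held a median of 43.2% of the family's summed FPKM. Scn8a (NaV1.6, the main channel of mature initial segments and nodes) held 27.8%, Scn1a (NaV1.1, prominent in fast-spiking GABA interneurons) 17.2% and Scn3a (NaV1.3, abundant in the embryonic brain) 8.67%. The summed level of the 7 (mean ± SD of 6 libraries, as for all such values) was 65.4 ± 2.90 FPKM in saline and 64.4 ± 2.58 in CFA. Scn2a lay at 25.7, 28.4 and 29.5 FPKM (lowest, median, highest) in saline and at 24.7, 28.0 and 30.1 in CFA, overlapping throughout. The intervals of Scn1a (-0.19 to 0.10 on the log2(FPKM + 1) scale), Scn2a (-0.13 to 0.10), Scn3a (-0.04 to 0.22) and Scn8a (-0.17 to 0.05) all included 0. Scn9a, the NaV1.7 channel best known from pain-sensing neurons, was near the limit of the filter at 1.09 ± 0.121 FPKM in saline and 1.13 ± 0.126 in CFA (difference 0.03, adjusted p = 0.956).

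Scn7a, the sodium-sensing NaX channel of glia and circumventricular organs, was at 1 FPKM or more in 5 of 12 libraries, with medians of 1.02 FPKM in saline and 0.915 in CFA. Scn4a, the NaV1.4 channel of skeletal muscle, had 14 reads in all saline libraries together and 1 in all CFA libraries, and 0 reads in 3 saline and 5 CFA libraries. Of the 14, saline 2 held 8, and a library with 0 reads allows up to 3 (counting error only), so the groups were not compared.

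Scn3a, Scn2a, Scn1a, Scn9a and Scn7a lie together on chromosome 2 (mm10, 65457118 to 66784914), in a stretch of 1328 kb. Their levels ran from about 1 FPKM for Scn7a and Scn9a to the 27.9 FPKM mean of Scn2a over 12 libraries.

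Beta subunits are single-pass membrane proteins that modify gating and bind other cells. Scn2b (chromosome 9, 45117782 to 45130070, plus strand), which promotes delivery of channels to the surface, lay at 80.2, 87.3 and 93.6 FPKM in saline and at 73.6, 78.8 and 87.2 in CFA. All 6 CFA libraries were below the saline median and 3 were below the lowest saline library, so the groups overlapped. The difference was -0.13 (SE 0.05, unadjusted p = 0.0211, adjusted p = 0.567). Scn3b differed by 0.02 (95% interval -0.08 to 0.11), at 39.8 ± 2.15 FPKM in saline and 40.3 ± 1.98 in CFA.

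Scn4b starts 8324 bases beyond the end of Scn2b (chromosome 9, 45138395 to 45154152, plus strand) and encodes the beta subunit whose tail supports resurgent sodium current, a gene known for high levels in striatal projection neurons and Purkinje cells. It lay at 11.8 FPKM in saline 1 and at 5.88 to 7.91 in the other 5 saline libraries. In the CFA group it lay at 26.6 in CFA 1, 17.3 in CFA 6 and 15.4 in CFA 5, and at 5.30 to 6.82 in the other 3. Each group thus held high and low libraries, 3 high ones in CFA and 1 in saline. The difference of 0.48 on the log2(FPKM + 1) scale had an interval of -0.23 to 1.19 and an adjusted p of 0.779. The libraries where Scn4b was high are those where the striatal marker list was high: its summed FPKM was 652 in CFA 1, 480 in CFA 6, 397 in saline 1 and 365 in CFA 5, and at most 298 in the others. With the mean of that list as a covariate the difference of Scn4b was 0.01 (adjusted p = 0.996).

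Calcium channel alpha1 subunits decide the class of current. The 9 genes summed to 83.0 ± 1.81 FPKM in saline and 82.3 ± 4.09 in CFA. Cacna1e, the R-type CaV2.3 pore, held the largest median share (23.8%), followed by Cacna1b (N-type CaV2.2, a presynaptic channel, 18.3%), Cacna1g (T-type CaV3.1, 17.5%) and Cacna1a (P/Q-type CaV2.1, the main channel of fast transmitter release, 15.1%). The L-type genes Cacna1c and Cacna1d, which couple activity to gene expression, were lower, at 3.09 and 3.69 FPKM over all libraries.

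**Figure D3:**
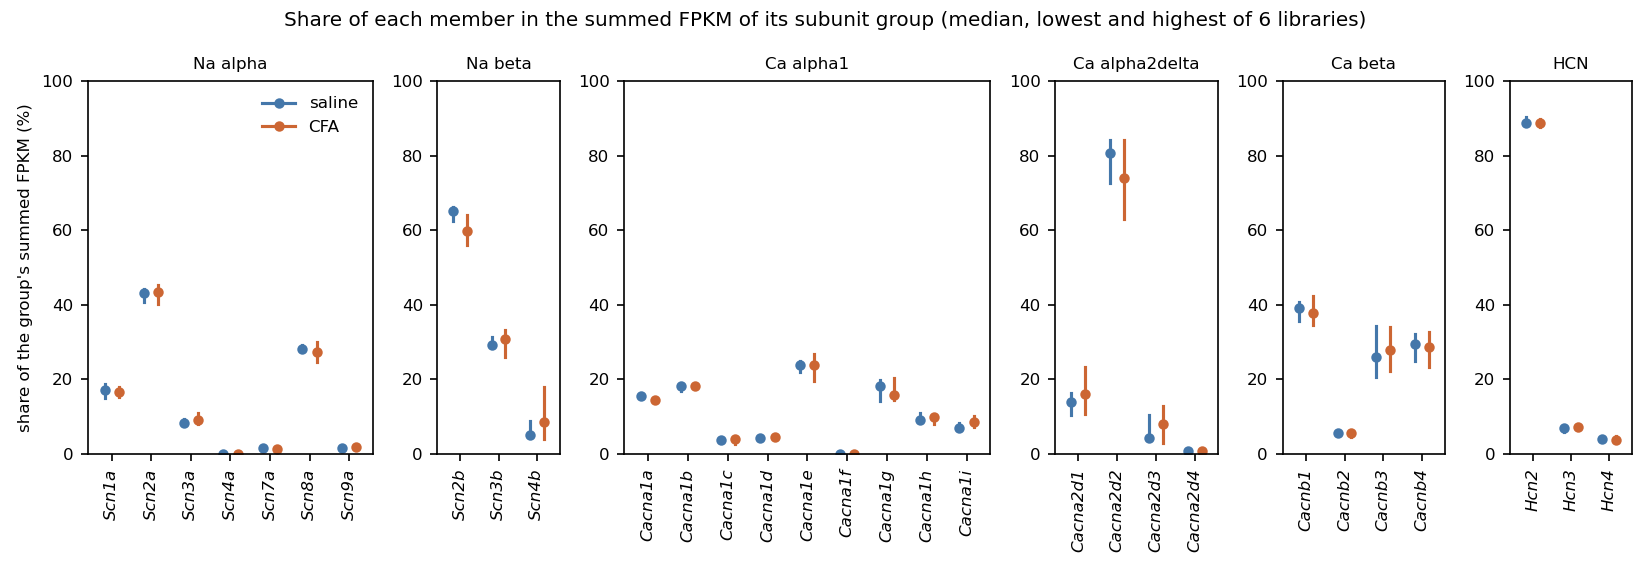
Share of each channel gene in the summed FPKM of its family (vertical axis, percent), with the median (point) and the lowest to highest of 6 libraries (line) for saline (blue) and CFA (orange). Hcn2 holds 88.8% of the HCN sum and Cacna2d2 79.9% of the alpha2delta sum (medians over 12 libraries).

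Cacna1i (chromosome 15, 80287238 to 80398279, plus strand) encodes the T-type CaV3.3 pore, best known from the thalamic reticular nucleus. It had the smallest p of the members. It lay at 5.29, 5.88 and 6.94 FPKM in saline and at 5.76, 7.05 and 8.53 in CFA, and 4 of 6 CFA libraries were above the highest saline library. The means were 6.00 ± 0.557 and 7.25 ± 1.04 FPKM, a difference of 0.23 (95% interval 0.05 to 0.41, unadjusted p = 0.0144). After adjustment over all genes the p was 0.5003, and it did not pass. With the striatal list as a covariate the difference was 0.25, and with the pan-neuronal list it was 0.36 (adjusted p = 0.497 and 0.234).

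Cacna1a (chromosome 8, 84388440 to 84640246, plus strand) lay at 12.5, 13.0 and 13.3 FPKM in saline and at 11.3, 11.7 and 12.9 in CFA. The saline libraries lay close together, with a coefficient of variation of 1.99% against 6.07% in CFA, and 4 CFA libraries were below the lowest of them. The difference was -0.11 (SE 0.04, unadjusted p = 0.0239, adjusted p = 0.583), and -0.06 with the pan-neuronal list as a covariate.

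The other T-type genes, Cacna1g and Cacna1h, had differences of -0.10 (95% interval -0.32 to 0.13) and -0.0047 (-0.14 to 0.13). Cacna1b differed by 0.0018 (-0.10 to 0.10), Cacna1e by -0.02 (-0.15 to 0.11), Cacna1c by 0.01 (-0.20 to 0.22) and Cacna1d by 0.05 (-0.06 to 0.15). Cacna1f, the CaV1.4 channel of photoreceptors, had 9 to 44 reads per library and at most 0.123 FPKM.

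Alpha2delta subunits are extracellular proteins that carry calcium channels to the surface, and those encoded by Cacna2d1 and Cacna2d2 bind the pain drug gabapentin. Cacna2d2 lay at 42.3, 46.7 and 54.3 FPKM in saline and at 33.0, 39.8 and 51.7 in CFA, with 4 CFA libraries below the lowest saline one. The difference was -0.19 (95% interval -0.40 to 0.01, adjusted p = 0.682), and -0.12 with the striatal list as a covariate. Cacna2d1 lay at 6.77, 7.99 and 9.56 FPKM in saline and at 6.57, 8.61 and 12.1 in CFA, overlapping over most of the range (0.12, adjusted p = 0.867).

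Cacna2d3, linked to heat pain sensitivity in earlier work on flies and mice, was, like Scn4b, highest in CFA 1 and CFA 6 and high for its group in saline 1, but unlike Scn4b it was higher in CFA 3 than in CFA 5. It was 6.03 FPKM in saline 1 and 2.09 to 2.88 in the other saline libraries. In CFA it was 7.28 in CFA 1, 6.72 in CFA 6, 4.46 in CFA 3, 3.84 in CFA 5, 2.48 in CFA 4 and 1.62 in CFA 2. The difference was 0.34 (95% interval -0.25 to 0.93, adjusted p = 0.813), and with the striatal list as a covariate it was -0.02 (adjusted p = 0.993). Cacna2d4, known from retina, had 75 to 212 reads per library and at most 0.623 FPKM.

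Beta subunits of calcium channels are cytoplasmic proteins that shield the pore protein from degradation and tune its opening. Cacnb1 held a median of 38.7% of their sum, Cacnb4 29.5%, Cacnb3 26.9% and Cacnb2 5.71%. The sum was 73.8 ± 8.07 FPKM in saline and 75.2 ± 6.40 in CFA. Cacnb3 varied most among them, from 13.5 to 30.5 FPKM in saline and from 15.1 to 28.6 in CFA (difference 0.09, adjusted p = 0.945). The lowest adjusted p of the 4 was 0.937.

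The 3 HCN genes all had negative differences, also as TPM and after median ratio scaling, but with the pan-neuronal list as a covariate Hcn3 was at 0.05; none passed. Their sum was 73.0 ± 3.64 FPKM in saline and 66.7 ± 9.23 in CFA. Hcn2 (chromosome 10, 79716634 to 79736108, plus strand), the widely expressed brain HCN channel, lay at 60.2, 64.3 and 71.2 FPKM in saline. In CFA it lay at 54.3, 56.4 and 74.5, with 5 of 6 libraries below the lowest saline one and CFA 4 above all saline libraries. The difference was -0.14 (95% interval -0.29 to 0.02, adjusted p = 0.695), and -0.07 with the pan-neuronal list as a covariate. Over the fits that left out 1 library it ran from -0.20 to -0.11. The -0.20 came without CFA 4, and its adjusted p of 0.107 was the lowest of any member over all alternatives. Hcn4, the slow channel of cardiac and thalamic pacemaking, was 2.96 ± 0.249 FPKM in saline and 2.62 ± 0.751 in CFA (-0.15, adjusted p = 0.794, and -0.07 with the striatal list as a covariate). Hcn3 was 5.02 ± 0.416 and 4.81 ± 0.921 (-0.06, adjusted p = 0.925).

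Genes that share exonic bases with another gene on the opposite strand could hold some of its reads, since the strand setting of the counting is not given in the sources used here. This touched Hcn3, which shares 17.1% of its exonic bases with Pklr, and Cacnb4, which shares 16.0% with A430018G15Rik. Other members shared at most 4.67% with any one gene.

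A list of 30 partner and related genes, called partner genes here, was described in the same fit. It held auxiliary subunits, anchoring proteins of the initial segment, fibroblast growth factor homologues, release-site proteins and regulators of channel number. Some belong to other channels: Nalcn, Unc79, Unc80 and Fam155a to the NALCN complex, Cacng3 to AMPA receptors, and the channel genes Tpcn1 and Tpcn2. Of 29 tested, 0 passed, where 0.03% of all genes tested did. At an unadjusted p under 0.05 there were 2 (6.90% of the 29, beside 7.67% of all genes tested), both lower in CFA. These were Sptbn4, the beta-IV spectrin that holds sodium channels at initial segments (-0.13, adjusted p = 0.601), and Fam155a, a subunit of the NALCN sodium leak channel complex (-0.14, adjusted p = 0.616). Next by p were Unc80, another NALCN partner (0.12), Cacng3, a transmembrane AMPA receptor regulatory protein (0.17), the ubiquitin ligase Nedd4l (0.10) and Rrad, a small GTPase that restrains calcium channels (0.18), with adjusted p from 0.698 to 0.813. The partner differences were positive for 16 and negative for 13, with a median of 0.02.

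The next question was how members varied among libraries of the same group. Each gene was fitted with the group and the mean of a marker list as terms, for each of 14 lists with at least 3 tested genes, and the slope is the change in log2(FPKM + 1) of the gene per unit of the list mean. No member is in a list. For the striatal list, 2 members had positive slopes past the threshold, beside 1.01% of all genes tested, and 1 had a negative slope, beside 0.727%. Scn4b, whose start window above has no GC box, had a slope of 1.21 (SE 0.10, adjusted p = 4.88e-05) and Cacna2d3, with 6 in its window, one of 0.95 (SE 0.13, adjusted p = 0.00297). Both also passed when p was adjusted over all genes and all 14 lists together (0.000128 and 0.00885), and in each of the 12 fits that left out 1 library, where the slope ran from 1.17 to 1.27 for Scn4b and from 0.84 to 1.07 for Cacna2d3. The 14 striatal markers, among them the dopamine receptors Drd1 and Drd2 and the phosphoprotein gene Ppp1r1b, were all tested and none was at 0 in any library. The part of striatal tissue in these slopes was not tested.

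Cacna1g had a negative slope on the striatal list, -0.33 (SE 0.06, adjusted p = 0.0242). It was 12.1 FPKM in saline 1, 11.5 in CFA 1, 12.3 in CFA 6 and 11.9 in CFA 5, the libraries with the highest striatal sums, and 13.4 to 17.6 in the others. This call did not hold over all 14 lists together (adjusted p = 0.0627). It was also lost without CFA 1 (0.0563), CFA 2 (0.0853), CFA 4 (0.0714), CFA 6 (0.0557) or saline 1 (0.0732), without saline 3 and saline 5 together (0.0510), and with no filter on low genes (0.0665), although the slope stayed between -0.39 and -0.29 in all alternatives.

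For the cortical and hippocampal list, 5 of whose 7 markers were tested, 2 members had positive slopes past the threshold (1.2% of all genes tested) and 1 a negative slope (0.225%). Cacnb3 had 0.27 (SE 0.05, adjusted p = 0.0135), Cacna2d1 0.20 (SE 0.04, adjusted p = 0.0164) and Cacna2d2 -0.14 (SE 0.03, adjusted p = 0.0168). So, within groups, the main alpha2delta gene of this tissue ran against Cacna2d1. The 4 libraries highest on the list (CFA 3, CFA 6, saline 1 and CFA 5), with 73.2 to 120 FPKM of these markers, had Cacna2d1 at 8.75 to 12.1 FPKM and Cacna2d2 at 33.0 to 42.3. The 4 lowest (saline 4, CFA 1, CFA 4 and CFA 2), with 6.92 to 12.4 FPKM, had Cacna2d1 at 6.57 to 8.47 and Cacna2d2 at 42.2 to 54.3, so for Cacna2d2 these libraries met at saline 1 and CFA 1. CFA 4 had 1 of the 7 markers at 0, and no other library had any at 0. Adjusted over all lists the p values were 0.0379, 0.0472 and 0.0484. The slopes were smaller with voom on the recovered reads, where values and list mean are log2 counts per library size (Cacnb3 0.15, Cacna2d1 0.12, Cacna2d2 -0.09), and with a pseudocount of 0.1 Cacnb3 and Cacna2d1 were both below their reported slopes (0.18 and 0.14); all of these passed. Single libraries could end each call: Cacnb3 without CFA 3 (0.0673) or saline 4 (0.0601), Cacna2d1 without CFA 3 (0.0732) or CFA 6 (0.0509), and Cacna2d2 without CFA 2 (0.0554), CFA 6 (0.0517) or saline 4 (0.0566). Cacna2d1 was also lost with no filter on low genes (0.0530).

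With the striatal and cortical means together as covariates, an alternative chosen after seeing the data, the CFA differences were 0.01 for both Scn4b and Cacna2d3, -0.16 for Cacna2d2, 0.14 for Cacna2d1 and 0.09 for Cacnb3. None passed.

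On the lateral septum list 1 member had a negative slope (0.36% of all genes tested) and 0 a positive one (0.247%). It was Cacnb3, at -1.85 (SE 0.37, adjusted p = 0.0482). The call did not hold over all lists (0.0737) and was lost in 9 of the 12 fits that left out 1 library, where the adjusted p ran from 0.0124 to 0.3001. The libraries lowest on the lateral septum list (CFA 6, saline 1, CFA 5 and CFA 3) were also the highest on the cortical list. The septal and cortical slopes of Cacnb3 were not fitted together, so they are not separate results. For each of the other 11 lists (GABA neurons, medial septum cholinergic neurons, pan-neuronal genes, astrocytes, oligodendrocytes and their precursors, microglia, endothelium, choroid plexus, ependyma and erythroid cells) 0 members passed, where between 0 and 1.55% of all genes tested did. Cacna2d3 had a slope of -0.88 on the oligodendrocyte list (SE 0.21, adjusted p = 0.0657). Saline 1 and CFA 1 were the lowest libraries on that list.

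**Figure D4:**
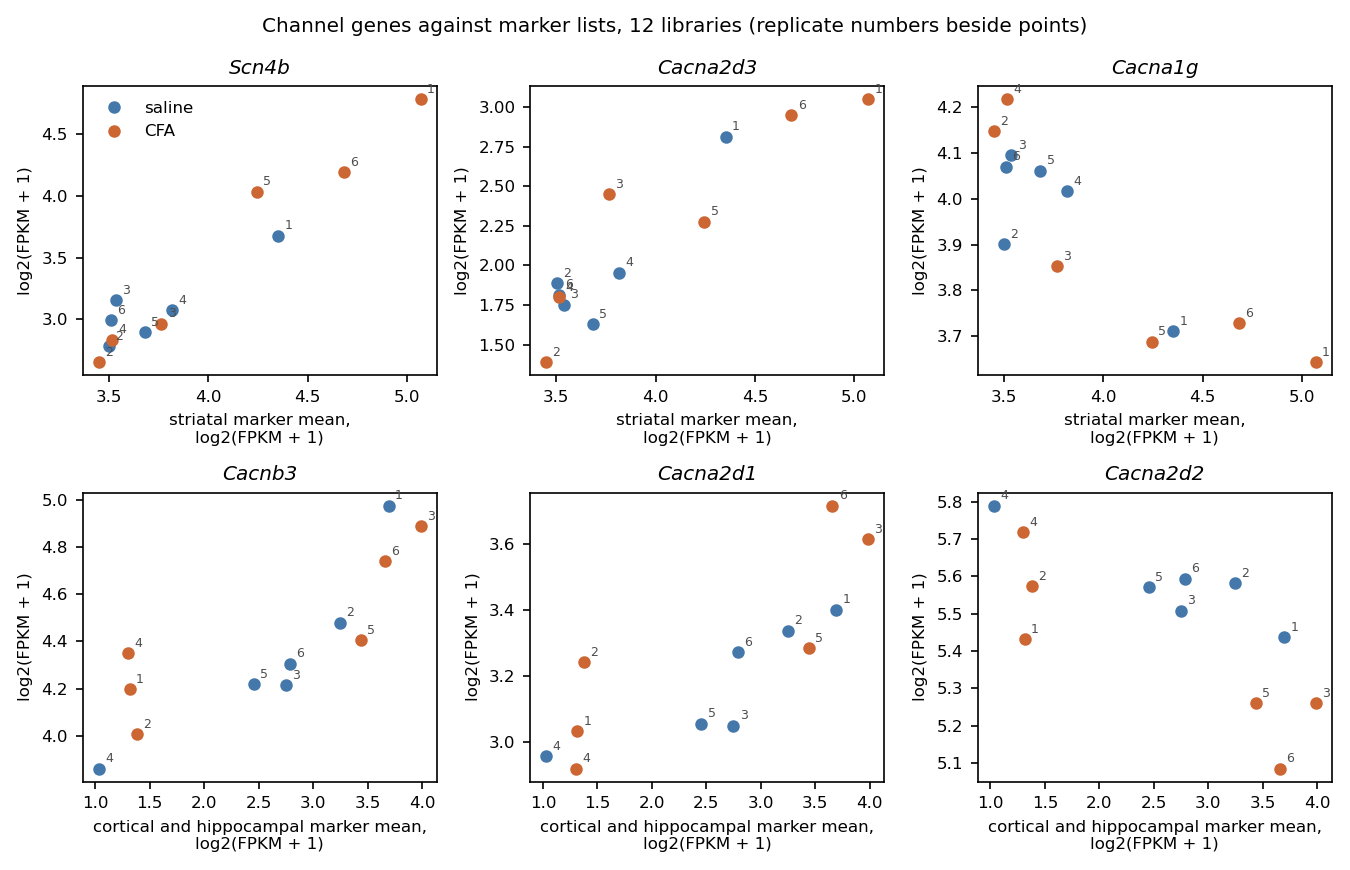
Level of 6 channel genes (vertical axes, log2(FPKM + 1)) against the mean of the striatal (top) or the cortical and hippocampal (bottom) marker list (horizontal axes, same scale) in 6 saline (blue) and 6 CFA (orange) libraries, with replicate numbers. Scn4b and Cacna2d3 rise along the striatal list with CFA 1 at the upper end, and Cacna2d2 runs down along the cortical list.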

How the data were processed

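Members and gene lists were chosen with earlier results of these data known. Per the labels' protocols, Trizol-extracted RNA (0.2 µg per library) was sequenced on an Illumina NovaSeq as read pairs of 150 bases. HISAT2 2.0.5 and the build mm10 are named in the submitters' processing notes. The counter, its strand handling and the annotation release were not given in the sources used here. Values deposited by the authors are FPKM, 1 column per library, and the gene length in bases behind it. Their product moved in whole steps, which gave back the reads: 33.6 to 39.2 M per library, 100% of values within 0.01 of a whole number. The coordinates of all 30 members equal those of GENCODE M21 (GRCm38). Of another deposited table, 6 columns matched no sample and were left out.

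A gene was tested when at least 6 libraries reached 1 FPKM, which held for 13345 genes. The model was fitted by limma 3.58.1 (R 4.3.3) to log2(FPKM + 1), moderated by eBayes along the mean-variance trend. Tests were two-sided with Benjamini-Hochberg adjustment over all 13345 and a threshold of 0.05. Differences are CFA minus saline, and this scale understates them for low genes. FPKM is no count, so the recovered reads served only voom, as an alternative. Marker slopes came from the same model with group and list mean as terms. The code was tested on simulated data. All members are named, and of the partner list those past the threshold, then the smallest p up to 6. Alternatives covered pseudocounts, filters, TPM and median ratio scaling, voom, eBayes without trend, a replicate block, left-out libraries and covariates. Same-numbered saline and CFA libraries did not all deviate together (correlations -0.0118 to 0.159), so numbers were not taken as pairs. Figures were drawn with matplotlib 3.10.9 from tables made with pandas 2.3.3 and numpy 2.4.6 (Python 3.11.15).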

Additional observations from a re-analysis of the deposited data

Results flagged for a closer look

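In 4 of 52 group-by-gene sets of 6 libraries, 1 library stood apart from the other 5 by a gap beyond Dixon's critical value at 95% for the share of the group's range, which chance gives in about 1 in 20 sets. Scn4b was 11.8 FPKM in saline 1, with the next saline library at 7.91. Cacna2d3 was 6.03 FPKM in the same library, with the next at 2.88. Saline 1 also had the highest striatal marker sum of its group (397 FPKM, with the next at 298). Hcn2 was 74.5 FPKM in CFA 4, with the next CFA library at 59.7. Cacna1b, the N-type calcium channel pore, was 13.5 FPKM in CFA 5, with the next lowest at 15.1.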

How the results depend on the processing

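Over 27 alternatives, 0 members and 0 partner genes passed the threshold for CFA against saline. All genes tested gave 4 calls, and 2 without trend, 2 with no filter, 1 with the pan-neuronal list, 1 with Xist, 13 with the striatal list, 11 with the striatal and cortical lists as covariates, and 1 to 11 when 1 library was left out. Of 696 member values, 61 changed sign, none past the threshold (lowest adjusted p of any value 0.107) and none above 0.062 in size; 10 members never did. Sign changes (log2 scale) were, with the striatal list, Cacna1c -0.062, Cacna1g 0.032, Cacna2d3 -0.024 and Cacnb4 -0.047; with both lists, Cacna1c -0.037, Cacna1g 0.012, Cacnb2 -0.00081, Cacnb4 -0.043 and Scn9a -0.014; with the pan-neuronal list, Cacna1h 0.062, Cacnb1 0.018, Cacnb4 -0.0501, Hcn3 0.053, Scn1a 0.039 and Scn8a 0.027; with Xist, Cacna1h 0.052, Scn1a 0.048 and Scn2a 0.018. As TPM, Cacna1e was 0.0162, Cacna1h 0.033, Cacnb1 0.032 and Scn2a 0.0245. With voom, Cacna1h was 0.0076 and Cacnb1 0.0055. Without saline 3 and saline 5, Cacna1b was -0.041, Cacna1c -0.0237 and Scn3b -0.012. Leaving out 1 library gave Cacna1b -0.0217 to 0.0305, Cacna1c -0.0397 to 0.0698, Cacna1e -0.0498 to 0.0165, Cacna1h -0.0290 to 0.0367, Cacnb1 -0.0266 to 0.0216, Cacnb3 -0.0077 to 0.215, Cacnb4 -0.0273 to 0.0857, Scn2a -0.0382 to 0.0182, Scn3b -0.0057 to 0.0384 and Scn9a -0.0038 to 0.0458. The cause was not tested. With the replicate block 0 members and 1 gene in all were called. The block left 0 of 3 striatal slopes (Scn4b 1.21, adjusted p = 0.441; Cacna2d3 0.89, 0.697; Cacna1g -0.39, 0.743) and 1 of 3 cortical slopes (Cacnb3, 0.0231). The labels' numbers pair nothing known: 2 of 6 saline libraries deviated most like the CFA library of their number. Leaving out 1 library gave 1 to 3 cortical calls. The slope of Cacnb3 on the lateral septum list was lost in 17 of 23 alternatives. The cortical and septal slopes were run over the alternatives, and both lists used together as covariates, after seeing the data.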
